A study of Mus musculus with 9 samples.

Results

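Tumours that carry a floxed Yap1 allele in addition to an activated Smoothened allele, and that the labels call non-rescued, were compared with tumours that carry the activated allele alone. The non-rescued group, YSGnr, had the genotype fYap1;fSMO-M2;hGFAPcre. The comparison group, SG, had fSMO-M2;hGFAPcre. A further group, YSGr, had the YSGnr genotype and is labelled rescued; the sources used here do not say what the rescue was. Each group had 3 libraries of total RNA from tumour tissue labelled MB, taken at postnatal day 8 or 9. The comparison used 6 of the 9 libraries and 15251 of the 17482 genes in the table, those with a level above 0 in log2 CPM, the logarithm of read counts scaled to library size, in at least 3 of the 9 libraries. All groups carry Cre driven by hGFAP, the human GFAP promoter, so recombination is limited to the cells in which that promoter has been active. The labels do not say whether libraries came from separate animals. A p-value here reflects only how far libraries differ within the 3 groups, YSGr included, and that spread may be technical.

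SMO-M2 is a form of the Hedgehog receptor Smoothened that signals without ligand, and mice that express it in granule neuron progenitors of the cerebellum are known as a model of Hedgehog-driven medulloblastoma. Yap1 encodes YAP, a transcriptional coactivator that, like its paralog TAZ (gene Wwtr1), binds DNA through TEAD factors. Kinases of the Hippo pathway keep YAP and TAZ in the cytoplasm, and both are known to be active in radial glia and other neural stem cells. The hGFAP promoter is known to be active in radial glia, from which neurons and glia of the cerebellum arise, whereas endothelial cells, mural cells and microglia have other origins.

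The libraries differed in depth and in sex-linked transcripts. Reads calculated back from the deposited values ranged from 17.3 M to 29.2 M, apart from YSGnr.1, which had 9.66 M. Of the reads in YSGnr.1, 63.4% fell on 2 transcripts, Yam1 and Lars2, against 1.98% to 8.15% elsewhere, which left 3.53 M reads for all other genes. YSGnr.1 had 824 genes at the lowest value of the table, −3.52, against 94 to 213 in the other libraries. Xist, transcribed from the inactive X chromosome, was at 10.81 in YSGnr.1 and between −1.38 and −0.25 in the other 5 SG and YSGnr libraries. The Y-linked Ddx3y, Eif2s3y and Kdm5d were at −3.52 in YSGnr.1 and between 4.76 and 5.99 in those 5 libraries. Without YSGnr.1, Ddx3y was lower in YSGnr than in SG (−0.70, limma adjusted p = 0.0346). This call was lost when a trend on transcript length and GC content, described below, was removed as well (−0.24, adjusted p = 0.53). Eif2s3y (−0.17), Kdm5d (−0.24) and the Y-linked Uty (−0.91) were not called without YSGnr.1 (adjusted p = 0.57, 0.39 and 0.097). The granule progenitor genes Zic1 (9.79 to 9.82 in YSGnr, 9.81 to 9.98 in SG) and Barhl1 (8.86 to 9.27 and 8.80 to 8.84) were high in all 6 libraries. YSGr.3, which enters the estimate of the spread, correlated more closely with YSGnr.2 and YSGnr.3 (Pearson r across genes 0.966 and 0.960) than with YSGr.1 and YSGr.2 (0.936 and 0.929). YSGnr.1 shared its Xist and Y-linked levels with the YSGr libraries. Whether every library carries the right label was not tested, and all values are given by label.

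Yap1 (ENSMUSG00000053110.13, chr9:7931999-8004596, minus strand, GRCm38) was first examined as the floxed gene. Its level was 5.04, 5.11 and 5.03 log2 CPM in SG.1 to SG.3 and 2.79, 2.57 and 1.99 in YSGnr.1 to YSGnr.3. All YSGnr libraries lay below all SG libraries. The difference was −2.61 (SE 0.38, limma adjusted p = 0.0131), so that the YSGnr mean was 0.164 times the SG mean on the linear scale. The call was lost without SG.1, SG.2 or SG.3 (adjusted p = 0.0955, 0.0834 and 0.0785) and without YSGnr.3 (adjusted p = 0.0577).

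Across all genes, 181 rose and 331 fell in YSGnr (1.19% and 2.17% of 15251 genes, limma adjusted p below 0.05), of which 83 rose and 152 fell by at least 2-fold. At an unadjusted p below 0.05 there were 3909 genes. The 3 libraries of each group did not overlap for 2584 genes that were higher in YSGnr (16.9%) and for 3242 that were lower (21.3%), 38.2% of all tested genes in either direction. Without YSGnr.1, 1613 genes rose and 1719 fell (10.6% and 11.3%), and all 512 genes called with it kept their call. Without SG.1, SG.2 or SG.3 only 19, 23 and 23 of the 512 calls remained. Without YSGnr.2 or YSGnr.3 179 and 75 remained, without YSGr.1 or YSGr.2 231 and 223, and without YSGr.3 all 512. The genes called in each of the 9 fits that leave out 1 library numbered 18. Among them, Cbln3, Gabrd and Plac9b rose. Also among them, Col4a1, Col4a2, Cybrd1, Ccl21a and Rgma, a guidance cue named after its values were seen, fell. Ccl21a was above 0 log2 CPM only in the SG libraries, through which it passed the filter.

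Measured one at a time against the SG mean, YSGnr.1, YSGnr.2 and YSGnr.3 had 725, 669 and 1064 genes at least 2-fold above it and 871, 844 and 1215 at least 2-fold below it. The median absolute difference was 0.29, 0.40 and 0.46, against 0.09 to 0.12 for each SG library against the other SG libraries. In all 3 YSGnr libraries together, 109 genes were at least 2-fold above and 185 at least 2-fold below. YSGnr.1 alone accounted for 503 genes above and 507 below that passed 2-fold in neither of the others. Over the 331 genes that fell, the median difference was −0.88, −0.96 and −1.08 in YSGnr.1, YSGnr.2 and YSGnr.3, and over the 181 that rose it was 0.82, 0.90 and 1.14.

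The difference from SG followed transcript length in YSGnr.2 and YSGnr.3 and hardly in YSGnr.1. Across the 14603 tested genes with a length, Spearman's rho of the difference with the length of the longest transcript was −0.52 in YSGnr.2, −0.50 in YSGnr.3 and −0.07 in YSGnr.1, and −0.11 to 0.17 in each SG library against the others (genes are not independent replicates). Against the SG mean it was 0.15, 0.13 and −0.41 in YSGr.1 to YSGr.3, so that YSGr.3 had the same direction as YSGnr.2 and YSGnr.3. Genes were put in 5 classes of nearly equal size by length. In the shortest class the median difference was −0.01, 0.49 and 0.50 in YSGnr.1 to YSGnr.3, and in the longest class −0.10, −0.50 and −0.57. Of the genes called, 58 of the shortest class rose and 23 fell, whereas 7 of the longest class rose and 154 fell. With a smooth trend on length and GC content removed from every library, 277 genes rose and 410 fell (1.9% and 2.81% of 14603 genes). Of the 493 called genes that had a length, 361 (73.2%) kept their call. The fits without YSGnr.1, with the trend removed and with both changes shared 356 of the 512 calls, 127 of them higher and 229 lower. The part of transcript length in single results was not tested beyond this, and results whose call is lost with the trend removed are named as such below.

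**Figure D1:**
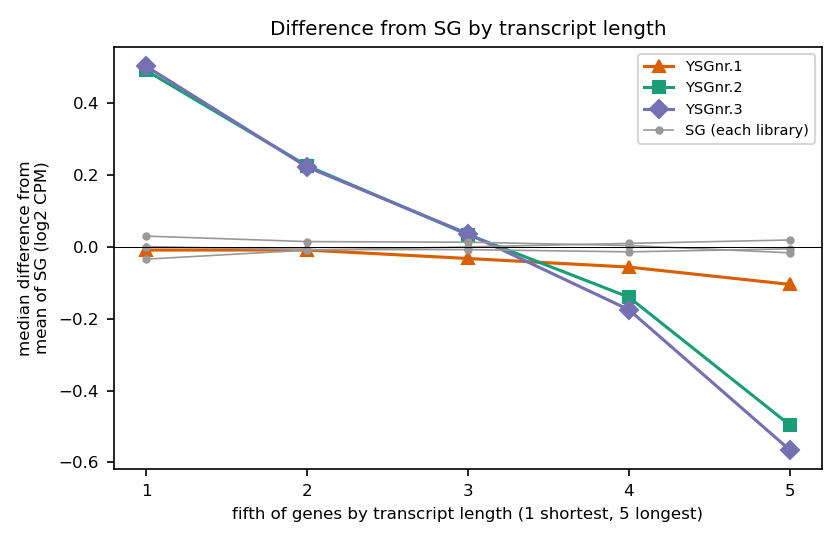
Median difference of tested genes from the mean of the 3 SG libraries (y axis, log2 CPM) in 5 classes of genes ordered by transcript length (x axis, shortest at the left), with 1 line per library. YSGnr.2 and YSGnr.3 go from 0.49 and 0.50 in the shortest class to −0.50 and −0.57 in the longest, while YSGnr.1 and the 3 SG libraries stay between −0.10 and 0.03.

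Genes of the basement membrane and of other extracellular matrix stood out for the number that fell together. Basement membranes are sheets of type IV collagen, laminins, nidogens and perlecan that line vessels and the outer surface of the brain. Of a list of 26 collagen, laminin and other matrix genes, 16 fell and none rose, beside 2.17% of all tested genes that fell. The list is called the basement membrane list below. It also holds genes that are not specific to basement membranes, such as Col5a2, Col11a1, Col6a3, Fbn2 and Fn1, which are among those that fell. Without YSGnr.1 19 fell, with the length trend removed 12 and with both 13 (beside 11.3%, 2.81% and 6.62% of all genes tested in those fits). The median difference over the 26 was −0.83, −1.05 and −1.03 in YSGnr.1, YSGnr.2 and YSGnr.3, while over all tested genes it was −0.04, 0.00 and −0.01. With the trend removed it was −0.84, −0.48 and −0.62. Their median transcript length was 6620 bases, against 3364 over all tested genes. In bulk tissue, fewer cells of a type and less RNA per cell cannot be told apart.

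Col4a1 and Col4a2 encode the chains of the main type IV collagen trimer. Col4a1 was at 9.0, 8.86 and 8.78 log2 CPM in SG and at 7.33, 7.26 and 7.22 in YSGnr. Col4a2 was at 7.94, 7.84 and 7.78 in SG and at 6.52, 6.50 and 6.52 in YSGnr. For both genes the 3 YSGnr libraries lay close together and all were below the lowest SG library. Col4a1 fell by 1.61 (SE 0.14) and Col4a2 fell by 1.34 (SE 0.11), each with adjusted p = 0.00248. Over the 9 fits that leave out 1 library, the highest adjusted p of both was 0.0338, without SG.2. The annotated starts of the pair lie 21 bases apart on chromosome 8, on opposite strands (RefSeq, GRCm38.p6). Col4a5, the chain of another type IV trimer, went from 5.6, 5.43 and 5.50 to 4.61, 4.68 and 4.56, and fell by 0.89 (SE 0.12, adjusted p = 0.0108).

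Laminins and the proteins that bridge them to collagen also fell. Lamc1, the gamma chain shared by most laminins, was at 7.40, 7.25 and 7.27 in SG and at 6.27, 6.19 and 6.25 in YSGnr (−1.07, SE 0.11, adjusted p = 0.00438). Lama1, an alpha chain of the laminin of the brain surface, went from 5.0, 4.97 and 4.74 to 3.53, 3.37 and 3.70 (−1.37, SE 0.16, adjusted p = 0.00735). Neither gene overlapped between the groups. Hspg2, which encodes perlecan, was at 6.49, 6.15 and 6.23 in SG and at 5.23, 3.42 and 4.39 in YSGnr (−1.94, SE 0.41, adjusted p = 0.0405), with YSGnr.1 the highest of its group. Nid1, the nidogen that links laminin to type IV collagen, was named after its values were seen. It went from 8.30, 8.11 and 8.15 to 6.71, 6.87 and 6.52 (−1.49, adjusted p = 0.0225). Fbn2, a microfibril protein, fell by 1.13 (SE 0.16, adjusted p = 0.0132), and Fn1, fibronectin, fell by 1.44 (SE 0.29, adjusted p = 0.0356). The remaining members that fell, also named after their values were seen, were Col6a3, Agrn, Nid2, Lama2, Lama4, Col5a2 and Col11a1. So were Col6a1 and Col6a2, which did not pass the test: these chains of the type VI collagen that joins microfibrils had differences of 0.06 and −0.04. The calls of Lama1, Fbn2, Lama2, Lama4, Col5a2 and Col11a1 were lost with the length trend removed.

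The basement membrane count depended on single libraries. Without SG.1, SG.2 or SG.3 2, 3 and 4 members fell, without YSGnr.2 or YSGnr.3 9 and 7, without YSGr.1 or YSGr.2 12 and 9, and without YSGr.3 22. In every one of these fits no member rose. In SG and YSGnr, 22 of the 26 genes did not overlap between the groups and were lower in YSGnr, beside 21.3% of all tested genes.

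**Figure D2:**
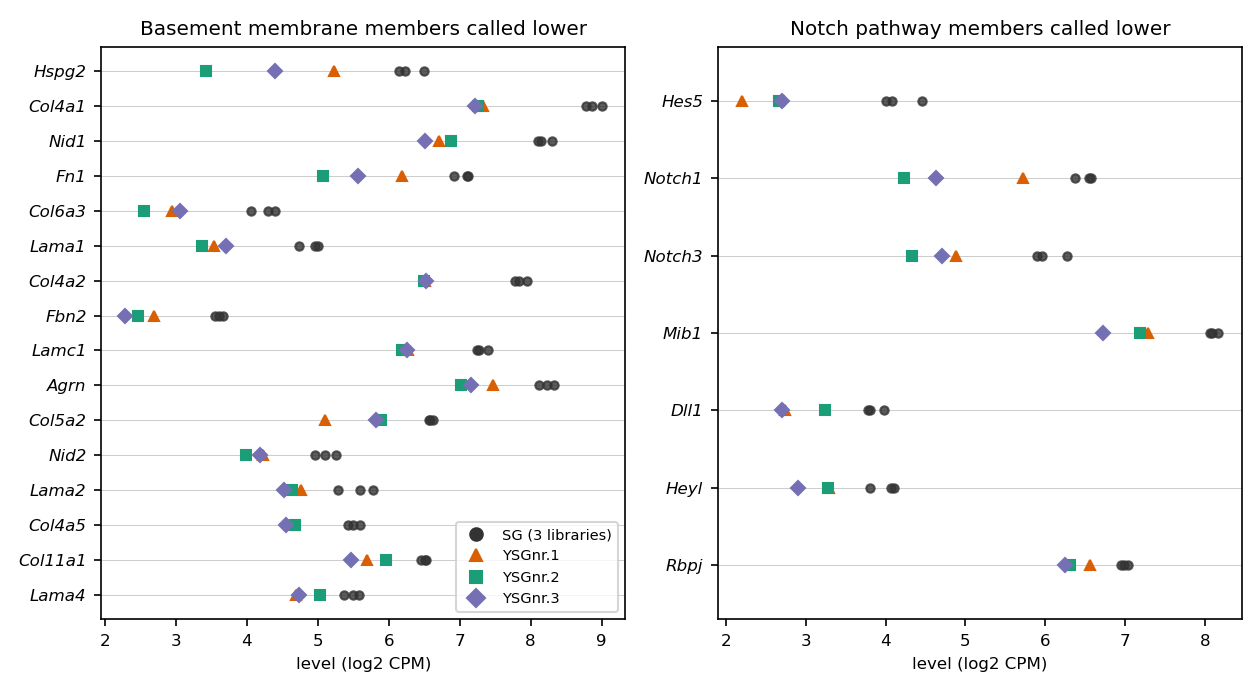
Level (x axis, log2 CPM) of each of the 16 genes of the basement membrane list and 7 Notch pathway genes that fell, with 1 point per library. The basement membrane list also holds other matrix genes. In every row the 3 SG libraries lie to the right of the 3 YSGnr libraries, and Col4a1 falls from between 8.78 and 9.0 to between 7.22 and 7.33.

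Cells that lie on these membranes were examined next. Of 17 endothelial markers 3 fell and none rose, and of 18 mural cell and fibroblast markers 3 fell and none rose, beside 2.17% of all tested genes that fell. The VEGF receptor Kdr was at 5.87, 5.76 and 5.77 in SG and at 4.32, 4.68 and 4.30 in YSGnr (−1.37, SE 0.19, adjusted p = 0.0130). Flt1, the other main VEGF receptor of vessels, fell by 1.38 (SE 0.21, adjusted p = 0.0170), and Cdh5, the cadherin of endothelial junctions, fell by 0.95 (SE 0.17, adjusted p = 0.0238). Pdgfrb, the PDGF receptor of pericytes, went from 5.39, 5.16 and 5.19 to 4.48, 4.17 and 4.23 (−0.95, SE 0.15, adjusted p = 0.0162). Notch3, the Notch receptor of mural cells, and Fn1, counted above in the basement membrane list, were the other mural members that fell. None of these genes overlapped between the groups. The list medians were smaller than for the basement membrane, at −0.51, −0.14 and −0.30 for the endothelial and −0.76, −0.35 and −0.56 for the mural markers in YSGnr.1, YSGnr.2 and YSGnr.3. The part of cell composition in the basement membrane result was not tested. Each endothelial and mural call was lost without any 1 of the SG libraries and without YSGnr.3 (adjusted p for Kdr 0.0969, 0.0820, 0.0785 and 0.0573).

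Adhesion to the matrix was represented by 26 integrin and focal adhesion genes, of which 3 fell and none rose, beside 2.17% of all tested genes that fell. Itga2, a collagen-binding integrin chain, was at 2.14, 1.68 and 1.82 in SG and at 0.45, −1.41 and 0.00 in YSGnr (−2.20, SE 0.46, adjusted p = 0.0402). Vcl, vinculin, fell by 0.93 (SE 0.15, adjusted p = 0.0197). Without YSGnr.1 7 members fell and 1 rose (beside 11.3% and 10.6% of all tested genes), and without any 1 of the SG libraries none was called.

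The Notch pathway, through which neighbouring cells keep neural stem cells undifferentiated, had 7 of 27 members lower in YSGnr and none higher, beside 2.17% of all tested genes that fell. Without YSGnr.1 13 fell, with the length trend removed 7 and with both 8 (beside 11.3%, 2.81% and 6.62%). Among receptors, Notch1 was at 6.57, 6.55 and 6.37 in SG and at 5.72, 4.23 and 4.63 in YSGnr (−1.64, SE 0.32, adjusted p = 0.0329). Notch3 went from 6.27, 5.89 and 5.96 to 4.88, 4.33 and 4.70 (−1.41, SE 0.24, adjusted p = 0.0212). Groups did not overlap for either, and YSGnr.1 was the highest YSGnr library for both. The ligand Dll1 fell by 0.96 (SE 0.19, adjusted p = 0.0334), and Mib1, the ubiquitin ligase that ligands need in order to signal, fell by 1.04 (SE 0.17, adjusted p = 0.0210, lost with the trend removed).

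Among the targets, the repressor Hes5 was at 4.07, 4.46 and 4.0 in SG and at 2.19, 2.67 and 2.70 in YSGnr. No library overlapped, and the difference was −1.66 (SE 0.22, adjusted p = 0.0108). Heyl, a related repressor, fell by 0.84 (SE 0.18, adjusted p = 0.0404). Hes1 (−0.64, adjusted p = 0.41) and Hey1 (0.39, adjusted p = 0.51) did not pass the test, nor did the ligands Jag1 (−1.18, adjusted p = 0.10) and Dll4 (−0.40, adjusted p = 0.21); these 4 were named after their values were seen. Rbpj, the DNA-binding factor of the pathway and the last of the 7, fell by 0.62 (adjusted p = 0.0433, lost with the trend removed; also named after its values were seen). Without any 1 of the SG libraries none of the 7 was called (Hes5 adjusted p = 0.0753, 0.0802 and 0.0582), and without YSGnr.3 only Hes5 was (adjusted p = 0.0323).

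Hes5 is a known direct target of the Notch complex, and its promoter is shown because the letters bound by RBPJ stand in it. The 250 bases before the RefSeq start (GRCm38.p6, chr4:154960673-154960922, plus strand) hold GTGGGAA or its reverse complement, in capitals, at positions that begin 226 and 83 bases before the start.
Hes5: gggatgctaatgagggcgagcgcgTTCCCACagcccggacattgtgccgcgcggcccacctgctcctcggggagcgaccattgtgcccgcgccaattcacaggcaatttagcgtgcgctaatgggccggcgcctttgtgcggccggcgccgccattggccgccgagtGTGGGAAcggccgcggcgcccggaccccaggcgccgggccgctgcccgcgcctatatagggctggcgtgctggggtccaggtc
The 7 letters, searched on both strands, stood in 5.51% of the 10899 tested genes with such a window, in 3 of 21 windows of Notch pathway genes, in 7.56% of genes that fell and in 1.61% of genes that rose. A match is a description of the sequence and not evidence of binding.

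All 14 neural stem cell genes were on average below SG, as were 7725 of the 15251 tested genes. Of the 14, 4 fell and none rose, beside 2.17% of all tested genes that fell. Without YSGnr.1 8 fell and with the trend removed 3 (beside 11.3% and 2.81%). Sox2, a transcription factor that maintains neural stem cells, was at 6.15, 6.16 and 6.17 in SG and at 4.46, 5.09 and 4.68 in YSGnr (−1.42, SE 0.17, adjusted p = 0.00887). Nes, the intermediate filament nestin, went from 7.25, 7.32 and 7.17 to 5.53, 6.24 and 5.14 (−1.61, SE 0.29, adjusted p = 0.0257, lost with the trend removed). Hes5 and Notch1 were the others. The groups did not overlap, with YSGnr lower, for 12 of the 14 genes, beside 21.3% of all tested genes. The list median was −0.87, −0.74 and −0.85 in YSGnr.1, YSGnr.2 and YSGnr.3. Without any 1 of the SG libraries none was called (Sox2 adjusted p = 0.0727, 0.0707 and 0.0639). Among other genes of progenitors and glia, Ptprz1, a receptor phosphatase of radial glia and oligodendrocyte progenitors, went from 9.20, 8.85 and 9.09 to 7.96, 7.69 and 7.44 (−1.35, SE 0.27, adjusted p = 0.0352). Of 20 astrocyte and Bergmann glia markers 1 fell and 1 rose (beside 2.17% and 1.19% of all tested genes), and without YSGnr.1 5 fell and 7 rose (beside 11.3% and 10.6%). Ttyh1, a membrane protein of stem cells and astrocytes, fell by 0.88 (SE 0.15, adjusted p = 0.0238), and Hopx, a homeodomain protein of Bergmann glia, rose by 0.68 (SE 0.14, adjusted p = 0.0377, lost with the trend removed). Neither of these 2 calls held without SG.1, SG.2 or SG.3.

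Of 24 Hippo pathway and TEAD genes, 5 fell and none rose, beside 2.17% of all tested genes that fell: Yap1, Wwtr1, Tead1, Wwc2 and Amot. Wwtr1, which encodes TAZ and is not floxed in these mice, was at 5.66, 5.37 and 5.41 in SG and at 4.53, 4.44 and 4.37 in YSGnr (−1.04, SE 0.14, adjusted p = 0.0111). Tead1, a DNA-binding partner of both, went from 7.51, 7.37 and 7.35 to 6.58, 5.90 and 5.75 (−1.34, SE 0.21, adjusted p = 0.0162). The scaffold gene Amot fell by 1.17 (SE 0.24, adjusted p = 0.0384), and Wwc2, which encodes an activator of the LATS kinases, fell by 1.11 (SE 0.18, adjusted p = 0.0205, lost with the trend removed). Groups did not overlap for these 4 genes. Without SG.1, SG.2 or SG.3 none of the 5 was called, and without YSGnr.3 only Wwtr1 was (adjusted p = 0.0438).

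Of 21 known targets of YAP and TEAD that were tested, 2 fell (Ajuba and Asap1) and 1 rose (Nt5e), beside 2.17% and 1.19% of all tested genes. Ajuba, a LIM protein that feeds back on the pathway, was at 4.04, 4.15 and 3.94 in SG and at 3.09, 3.01 and 2.67 in YSGnr (−1.12, SE 0.25, adjusted p = 0.0485). Asap1, which regulates ARF proteins, fell by 0.76 (SE 0.16, adjusted p = 0.0430, lost with the trend removed), and Nt5e, the CD73 ectonucleotidase that makes adenosine, rose from 2.42, 2.46 and 2.41 to 3.09, 3.36 and 3.15 (0.77, SE 0.16, adjusted p = 0.0356). The widely used targets Cyr61 (2.73, 1.53 and 1.81 against 0.45, 1.19 and 1.68) and Ctgf (0.55, 0.34 and 1.26 against 1.25, 0.77 and 2.09), named after their values were seen, overlapped between the groups. Without YSGnr.1 6 of the 21 fell and 3 rose (beside 11.3% and 10.6%), and without any 1 of the SG libraries none was called.

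Promoters of 4 genes that fell are shown because they hold the TEAD letters GGAATG or the reverse complement (capitals); the genes were chosen after the search. Each is the 250 bases before the RefSeq start (GRCm38.p6): Wwtr1 chr3:57575911-57576160, minus strand, with a match that begins 136 bases before the start; Ajuba chr14:54577662-54577911, minus strand, 186 and 164 bases; Notch1 chr2:26503823-26504072, minus strand, 233 and 216 bases; Pdlim3 chr8:45885237-45885486, plus strand, 201 and 11 bases.
Wwtr1: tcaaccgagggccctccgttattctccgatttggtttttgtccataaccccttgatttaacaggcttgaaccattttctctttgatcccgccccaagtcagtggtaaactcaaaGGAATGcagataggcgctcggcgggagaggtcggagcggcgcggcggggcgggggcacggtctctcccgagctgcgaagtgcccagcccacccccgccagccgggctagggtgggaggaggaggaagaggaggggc
Ajuba: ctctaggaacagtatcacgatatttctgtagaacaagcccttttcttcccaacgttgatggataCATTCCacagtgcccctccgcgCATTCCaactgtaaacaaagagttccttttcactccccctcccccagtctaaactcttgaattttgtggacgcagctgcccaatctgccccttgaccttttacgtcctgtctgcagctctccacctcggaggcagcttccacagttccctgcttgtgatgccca
Notch1: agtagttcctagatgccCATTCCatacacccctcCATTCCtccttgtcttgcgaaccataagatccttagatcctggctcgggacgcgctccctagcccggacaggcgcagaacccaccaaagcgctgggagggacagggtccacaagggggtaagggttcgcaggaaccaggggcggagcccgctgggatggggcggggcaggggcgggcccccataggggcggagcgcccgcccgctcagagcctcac
Pdlim3: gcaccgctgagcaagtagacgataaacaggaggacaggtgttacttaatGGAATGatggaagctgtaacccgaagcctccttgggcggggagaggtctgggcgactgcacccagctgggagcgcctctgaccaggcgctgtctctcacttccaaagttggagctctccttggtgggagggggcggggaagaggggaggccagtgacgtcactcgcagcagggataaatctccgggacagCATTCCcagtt
These 6 letters stood in 1160 of 10899 such windows of tested genes (10.6%), in 34 of 225 of genes that fell (15.1%), in 15 of 124 of genes that rose (12.1%) and in 5 of 14 of the YAP and TEAD targets. The windows of Col4a1, Col4a2, Sox2, Nes and Cybrd1 did not hold these letters.

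Granule neurons are the cells that granule progenitors become, and a small set of their late genes rose. Of 24 differentiation genes 5 rose and none fell, beside 1.19% of all tested genes that rose. Without YSGnr.1 6 rose and 2 fell (beside 10.6% and 11.3%), and with the trend removed as well 5 rose and 1 fell (beside 7.18% and 6.62%). Gabrd, the delta subunit of the extrasynaptic GABA receptor of mature granule neurons, was at 1.86, 1.73 and 1.60 in SG and at 4.30, 3.42 and 4.33 in YSGnr (2.29, SE 0.26, adjusted p = 0.00547). Cbln3, a granule neuron cerebellin, went from 3.20, 3.10 and 3.13 to 5.13, 4.49 and 4.89 (1.69, SE 0.18, adjusted p = 0.00438). Gabra6, the receptor subunit that marks mature granule neurons, went from 2.53, 2.77 and 2.96 to 4.61, 3.92 and 4.16 (1.47, SE 0.25, adjusted p = 0.0227). Groups did not overlap for these 3, and YSGnr.2 was the lowest YSGnr library for each.

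The NMDA receptor subunit Grin2c rose by 1.03 (SE 0.21, adjusted p = 0.0356), and the vesicular glutamate transporter Slc17a7 by 1.45 (SE 0.33, adjusted p = 0.0482). The other 19 of the 24 genes were not called. On average 13 of the 24 were above SG and 11 below, while 7725 of the 15251 tested genes were below. Neurod1 and Rbfox3, both named after their values were seen, were among those not called. Neurod1 was at 7.71, 7.98 and 8.14 in SG and 8.49, 8.13 and 7.83 in YSGnr. Rbfox3 was at 7.23, 7.25 and 7.40 in SG and higher in every YSGnr library, at 7.89, 7.80 and 7.84. None of the 18 progenitor markers was called, also without YSGnr.1. The median over the 24 differentiation genes was 0.33, 0.03 and 0.08 in YSGnr.1 to YSGnr.3. Cbln3 and Gabrd kept their calls in each of the 9 fits that leave out 1 library (highest adjusted p = 0.0425 and 0.0464, without SG.3). They were the only 2 of the 5 called without SG.1, SG.2, SG.3 or YSGnr.3. Slc17a7 was not called in the fit without YSGnr.1 and with the trend removed (adjusted p = 0.0630).

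Of 12 Purkinje cell markers, 2 rose and 1 fell (beside 1.19% and 2.17% of all tested genes), and without YSGnr.1 2 rose and 3 fell (beside 10.6% and 11.3%). Over the 12 the median difference was 0.17, −0.49 and −0.72 in YSGnr.1, YSGnr.2 and YSGnr.3. On average 8 of the 12 were below SG, as were 7725 of the 15251 tested genes. Ppp1r17, a phosphatase inhibitor of Purkinje cells, was at 1.36, 2.07 and 1.88 in SG and at 4.25, 3.64 and 3.14 in YSGnr (1.90, SE 0.32, adjusted p = 0.0207). The glutamate transporter Slc1a6 rose by 0.92 (SE 0.13, adjusted p = 0.0111). Gdf10, the member that fell, encodes a BMP-family ligand made by Bergmann glia and is not specific to Purkinje cells. It went from 7.44, 7.19 and 7.13 to 6.23, 5.87 and 6.16 (−1.17, SE 0.18, adjusted p = 0.0162). For the myelin list, 13 genes, the median difference from SG was 1.07, 1.27 and −0.33 in YSGnr.1, YSGnr.2 and YSGnr.3, so YSGnr.3 went the other way. Against the SG mean it was −0.08, −0.44 and 0.53 in SG.1 to SG.3. Only Cnp (0.87, SE 0.17, adjusted p = 0.0311) and Opalin (2.97, SE 0.58, adjusted p = 0.0331) were called in this list. Both were higher in YSGnr, beside 1.19% of all tested genes that rose. Opalin was at −2.81, −2.10 and −1.22 in SG and at 0.91, 1.45 and 0.41 in YSGnr. None of these 5 calls held without SG.1, SG.2 or SG.3.

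The Hedgehog pathway was represented by 18 genes, of which 1 fell and none rose. On average 16 of the 18 were below SG and 2 above, while 7725 of the 15251 tested genes were below. For 9 the groups did not overlap with YSGnr lower and for 2 with YSGnr higher, beside 21.3% and 16.9% of all tested genes. Without YSGnr.1 3 fell (beside 11.3%), and with the trend removed none was called. Gli3, the main repressor of the pathway, was at 5.32, 5.07 and 5.08 in SG and at 4.23, 4.01 and 3.84 in YSGnr (−1.13, SE 0.16, adjusted p = 0.0132; lost with the trend removed, adjusted p = 0.0508). The target Gli1, at 7.65, 7.75 and 7.48 against 7.49, 7.30 and 7.42, was named after its values were seen and did not pass (adjusted p = 0.83). None of 30 DNA replication genes was called, also without YSGnr.1, with a median difference of 0.04, 0.39 and 0.53 in YSGnr.1 to YSGnr.3. Of 29 mitosis genes 1 fell, the kinetochore motor Cenpe (−0.71, SE 0.16, adjusted p = 0.0473, lost with the trend removed). Of 27 Wnt pathway genes, the receptor Fzd1 fell by 0.91 (SE 0.14, adjusted p = 0.0158) and the transcription factor Tcf7l2 by 1.10 (SE 0.20, adjusted p = 0.0253). Of 30 BMP and TGF-beta genes, the receptor Tgfbr1 fell by 0.75 (SE 0.16, adjusted p = 0.0402, lost with the trend removed). Of 32 axon guidance genes, the secreted cue Sema3f (−1.0, SE 0.20, adjusted p = 0.0355) and the receptor Robo1 (−0.83, SE 0.17, adjusted p = 0.0402, lost with the trend removed) fell. The counts of this paragraph from the fit on all 9 libraries stand beside 2.17% of all tested genes that fell. The calls named in this paragraph were all lost without SG.1, SG.2 or SG.3.

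**Figure D3:**
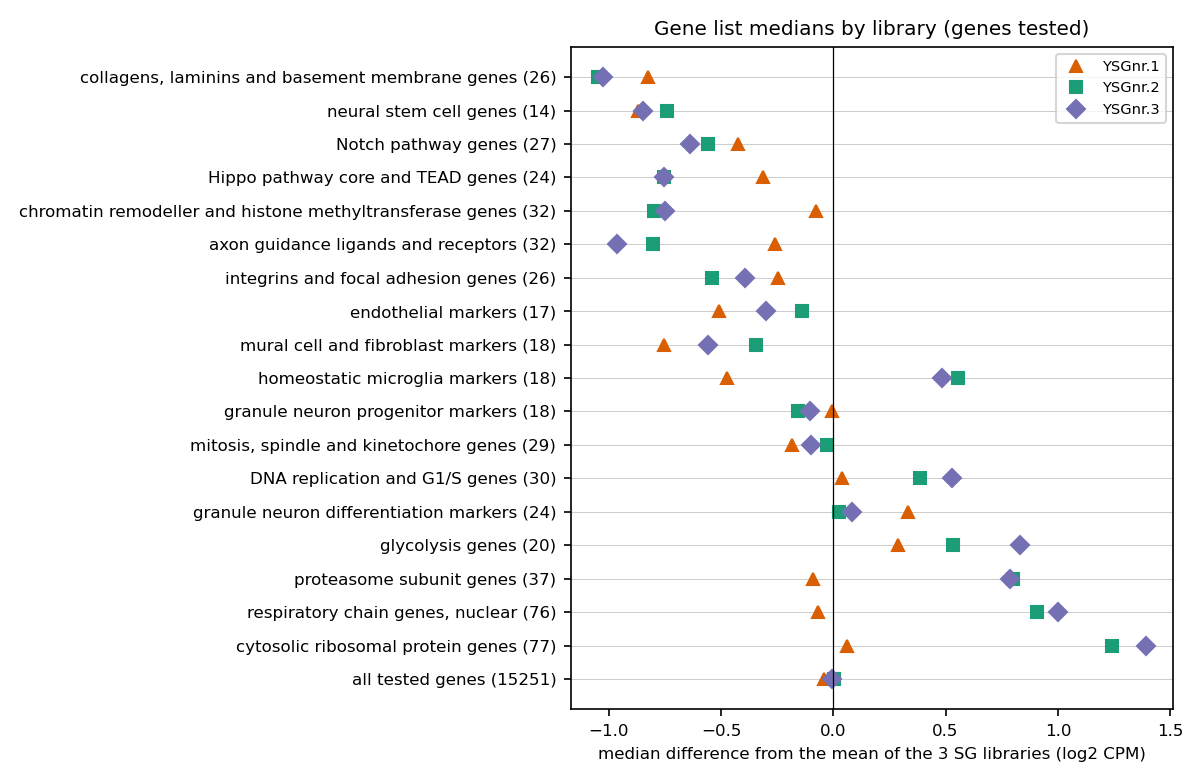
Median difference of the members of 18 gene lists, and of all tested genes, from the mean of the 3 SG libraries (x axis, log2 CPM), with 1 point per YSGnr library and the number of genes tested in brackets. The basement membrane and neural stem cell lists lie between −1.05 and −0.74 in all 3 libraries, while the ribosomal, nuclear respiratory chain and proteasome lists lie at −0.09 to 0.06 in YSGnr.1 and at 0.79 to 1.39 in the others.

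Several lists differed from SG in YSGnr.2 and YSGnr.3 and not in YSGnr.1. For 77 cytosolic ribosomal protein genes the median difference was 0.06 in YSGnr.1, 1.24 in YSGnr.2 and 1.39 in YSGnr.3. With all 3 libraries Rps7 alone rose (7.49, 7.67 and 7.51 against 8.65, 8.99 and 9.09; 1.36, SE 0.21, adjusted p = 0.0162), and without YSGnr.1 14 rose. For 76 nuclear genes of the respiratory chain the medians were −0.07, 0.91 and 1.00. With all 3 libraries Ndufv3, a complex I subunit, alone rose (1.03, SE 0.18, adjusted p = 0.0226), and without YSGnr.1 72 of 76 rose, or 47 of 74 with the trend removed as well. For 37 proteasome subunit genes the medians were −0.09, 0.80 and 0.79, and none was called with all 3 libraries, 27 without YSGnr.1 and 10 with the trend removed as well. Over all genes tested 10.6% rose without YSGnr.1 and 7.18% with the trend removed as well. The rescued library YSGr.3 had the same direction as YSGnr.2 and YSGnr.3. In YSGr.1, YSGr.2 and YSGr.3 the median difference from SG was −0.78, −1.01 and 0.74 for the ribosomal list. It was 0.04, 0.03 and 0.64 for the nuclear respiratory chain and −0.26, −0.32 and 0.38 for the proteasome.

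In the opposite direction, 32 genes of chromatin remodellers and histone methyltransferases had medians of −0.08, −0.80 and −0.75. None was called with all 3 libraries, 25 fell without YSGnr.1, and 9 fell with the trend removed as well (beside 11.3% and 6.62% of all genes tested in those fits). Their median transcript length was 8508 bases, against 1059 for the ribosomal protein genes. In YSGr.1, YSGr.2 and YSGr.3 the median difference of the chromatin genes from SG was 0.04, −0.15 and −0.35. For Chd7, a remodeller of granule progenitors, the values were 8.97, 8.80 and 8.98 in SG and 8.98, 8.32 and 8.29 in YSGnr, so that YSGnr.1 lay with SG. Histone genes moved the other way between libraries: the median over 39 genes was 5.22 in YSGnr.1, 0.56 in YSGnr.2 and 1.34 in YSGnr.3. Of these, 3 rose with all 3 libraries (Hist3h2ba, Hist3h2a and Hist3h2bb-ps, differences 0.65 to 0.90), and all 3 calls were lost with the trend removed.

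Glycolysis genes had medians of 0.29, 0.53 and 0.83 over 20 genes. Tpi1, triosephosphate isomerase, rose from 6.80, 6.78 and 6.93 to 7.64, 7.99 and 8.48 (1.20, SE 0.20, adjusted p = 0.0207), and without YSGnr.1 10 of the 20 rose (beside 10.6% of all tested genes). Of 21 cholesterol synthesis genes 2 rose, beside 1.19% of all tested genes: Fdft1, squalene synthase, by 0.78 (SE 0.13, adjusted p = 0.0225) and Mvd by 0.81 (SE 0.14, adjusted p = 0.0225, lost with the trend removed). None of these 3 calls held without SG.1, SG.2 or SG.3.

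Immune lists gave few calls and differed between the YSGnr libraries. None of 18 homeostatic microglia markers was called. Their median was −0.47 in YSGnr.1, 0.56 in YSGnr.2 and 0.48 in YSGnr.3, and without YSGnr.1 7 rose and 1 fell (beside 10.6% and 11.3% of all tested genes). Of 16 genes of activated microglia and macrophages, Clec7a, a receptor for fungal glucans that marks activated microglia, rose from −0.52, −0.58 and −1.45 to 0.70, 1.54 and 0.74 (1.84, SE 0.40, adjusted p = 0.0425), and without YSGnr.1 9 rose (beside the same 10.6%). Cxcl16, a chemokine, went from 0.24, 0.95 and 0.22 to 2.03, 1.83 and 2.79 (1.75, SE 0.38, adjusted p = 0.0431). H2-T22, a nonclassical MHC class I gene, rose by 1.40 (SE 0.32, adjusted p = 0.0495), and Serping1, the inhibitor of complement C1, by 1.01 (SE 0.20, adjusted p = 0.0356, lost with the trend removed).

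Among interferon response genes none of 13 was called, and among T cell markers only Cd4 passed the filter on low values, at −0.52, 0.44 and 0.07 in SG and at −0.74, 1.80 and 2.18 in YSGnr. Without YSGnr.1 2 of the 13 interferon response genes and Cd4 rose, beside 10.6% of all tested genes. Mmp9, the neutrophil gelatinase, fell by 1.78 (SE 0.39, adjusted p = 0.0443). The calls of Clec7a, Cxcl16, H2-T22, Serping1 and Mmp9 did not hold without SG.1, SG.2 or SG.3. Choroid plexus RNA varied by library: Ttr, the transthyretin of choroid plexus epithelium, was at 7.33, 9.12 and 8.90 in SG and at 5.35, 10.13 and 10.51 in YSGnr. The part of this difference between libraries in the immune values without YSGnr.1 was not tested.

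The largest changes, 15 in each direction, were taken among called genes other than predicted genes with a mean of at least 1 log2 CPM in the higher group, which leaves out Opalin (2.97), whose level is lower. Only genes whose SG and YSGnr libraries did not overlap were taken. Pdlim3, a PDZ and LIM protein of actin fibres, was at 8.41, 8.24 and 8.12 in SG and at 4.56, 5.40 and 4.35 in YSGnr (−3.48, SE 0.43, adjusted p = 0.00893), so that the YSGnr mean was 0.0893 times the SG mean. Ccl21a, a chemokine that draws lymphocytes and dendritic cells through CCR7, was at 2.13, 2.73 and 2.11 in SG and at −3.52, −1.85 and −2.23 in YSGnr (−4.85, SE 0.50, adjusted p = 0.00433). Ccl21a has near-identical copies in the mouse genome, between which reads could be split, so its value is uncertain. Cybrd1, a ferric reductase, went from 4.91, 4.77 and 5.04 to 2.56, 3.14 and 2.74 (−2.09, SE 0.20, adjusted p = 0.00342). Cybrd1 and Ccl21a kept their calls in each of the 9 fits that leave out 1 library. Ccl21a was above 0 log2 CPM only in the SG libraries, so it passed the filter only through the group where it is high. The filter was not repeated in those fits. Pdlim3 lost its call without SG.1, SG.2 or SG.3 (adjusted p = 0.0727, 0.0707 and 0.0542).

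Some of the other large decreases were in transcription factors of developing neurons. Meis2, a homeobox gene, was at 3.78, 2.97 and 4.04 in SG and at −0.74, 1.39 and 0.13 in YSGnr (−3.34, SE 0.58, adjusted p = 0.0233). Prdm13, which directs the fate of inhibitory neurons, went from 4.38, 4.22 and 4.30 to 1.87, 3.22 and 0.70 (−2.37, SE 0.53, adjusted p = 0.0473), with YSGnr.2 the highest of its group; its call was lost without YSGnr.1 and with the trend removed. The remaining decreases among the 15 largest, from −3.0 to −2.07, were in Ddn, Crym, Slc14a2, Myh3, Sdpr, Igf2os and Ccdc3. Crym and Slc14a2, like Ccl21a, were above 0 log2 CPM only in the SG libraries. Igf2os overlaps Igf2 on the opposite strand, and reads of the 2 genes cannot be told apart without strand. Outside the 15, the immediate early gene Egr1 fell from 5.72, 4.12 and 5.05 to 3.25, 3.18 and 3.26 (−1.73, SE 0.35, adjusted p = 0.0356). Calls of Meis2, Prdm13 and the other 7 were all lost without SG.1, SG.2 or SG.3, and Egr1 kept its call only without SG.2 of these (adjusted p = 0.0417).

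**Figure D4:**
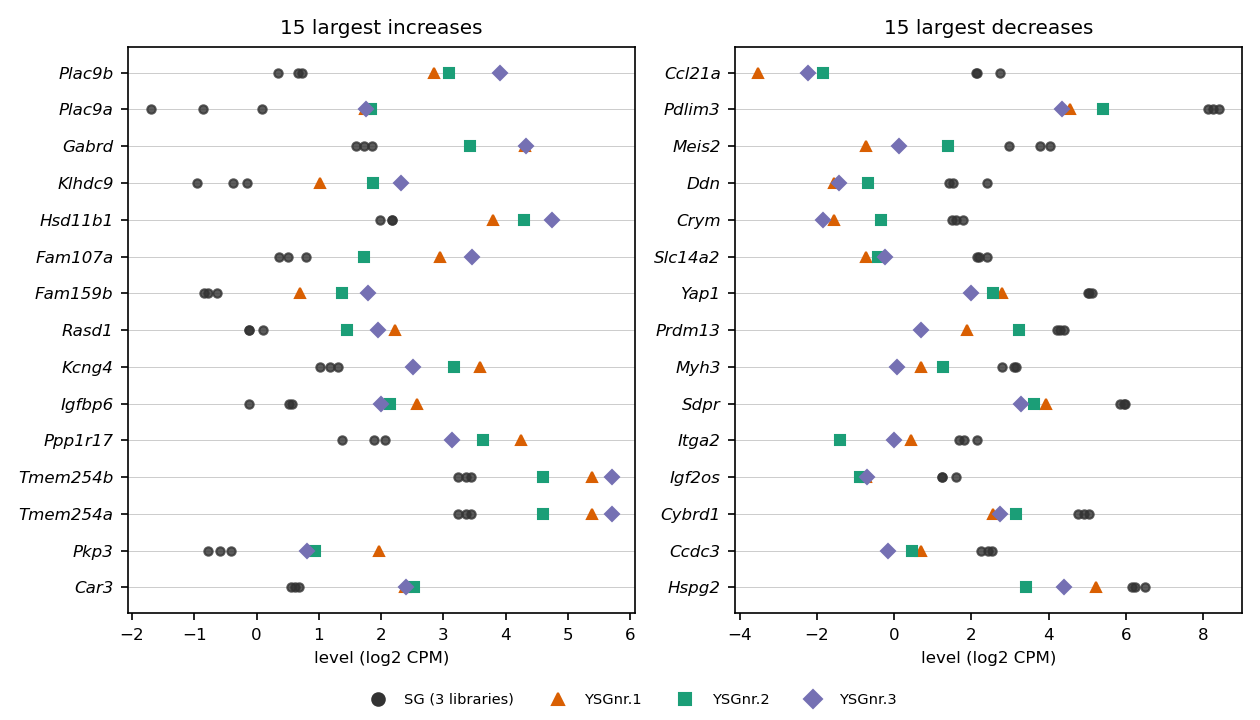
Level (x axis, log2 CPM) of the 15 genes with the largest increases and the 15 with the largest decreases among called genes with a mean of at least 1 log2 CPM in the higher group, predicted genes left out, with 1 point per library. Genes were taken only if the 3 SG and the 3 YSGnr libraries did not overlap, so their separation follows from the choice. Pdlim3 goes from between 8.12 and 8.41 to between 4.35 and 5.40.

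Among increases, Hsd11b1, the enzyme that regenerates active glucocorticoid inside cells, was at 2.17, 2.17 and 1.99 in SG and at 3.79, 4.29 and 4.75 in YSGnr (2.17, SE 0.31, adjusted p = 0.0131). Fam107a, a stress-induced actin regulator, went from 0.50, 0.36 and 0.79 to 2.95, 1.73 and 3.45 (2.16, SE 0.40, adjusted p = 0.0284). They were the 2 of 19 glucocorticoid response genes that rose, beside 1.19% of all tested genes. Without YSGnr.1 5 rose (beside 10.6%), and with the trend removed 2 (beside 1.9%). Car3, a carbonic anhydrase, went from 0.56, 0.62 and 0.68 to 2.38, 2.53 and 2.41 (1.82, SE 0.26, adjusted p = 0.0130), with little spread within either group. Igfbp6, a binding protein for IGF2, rose by 1.92 (SE 0.34, adjusted p = 0.0238). Others among the 15 were Klhdc9, Fam159b, Rasd1, Kcng4 and Pkp3 (1.83 to 2.23). None of these 9 calls held without SG.1, SG.2 or SG.3 (Hsd11b1 adjusted p = 0.0921, 0.0820 and 0.0812).

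Of these 15 increases, 4 lie in 1 stretch of chromosome 14 (GRCm38): Plac9a (start 25887506), Tmem254a (start 25923300), Plac9b (start 26167405) and Tmem254b (start 26203369). These are 2 pairs of near-identical copies between which reads could be split, so values for single copies are uncertain. Plac9b was at 0.35, 0.66 and 0.72 in SG and at 2.85, 3.09 and 3.91 in YSGnr (2.71, SE 0.30, adjusted p = 0.00486) and kept its call in all 9 fits that leave out 1 library. Tmem254a and Tmem254b had identical values, 3.36, 3.24 and 3.45 against 5.39, 4.6 and 5.71 (1.88, SE 0.25, adjusted p = 0.0111), and lost their call without SG.1, SG.2 or SG.3.

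The 2 Yap1-floxed groups were also compared with each other, as a difference of their means with the spread estimated over all 9 libraries, SG included. YSGr was above YSGnr for 776 genes and below it for 134 (5.09% and 0.879% of tested genes, 5.97% in either direction). This count rests on single libraries: it was 1 to 10 genes in all when any library but YSGnr.1 or YSGr.3 was left out, 4725 (31% of tested genes) without YSGnr.1 and 6528 without YSGr.3. Xist was at 9.81 to 10.66 in the 3 YSGr libraries, as high as in YSGnr.1 alone of the YSGnr libraries, and the part of sex in this comparison was not tested. The genes that follow are given with their values and the test on all 9 libraries. Most were picked by their difference between YSGnr and SG, and both comparisons use the same YSGnr libraries. That shared use favours higher YSGr values for genes picked because they fell in YSGnr.

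Yap1 itself was at 4.44, 3.31 and 2.79 in YSGr.1 to YSGr.3, and YSGr and YSGnr did not differ by the test (1.06, SE 0.38, adjusted p = 0.0959). In the basement membrane list, which also holds other matrix genes, 10 of 26 were higher in YSGr and none was lower, beside 5.09% and 0.879% of all tested genes. Col4a1 was at 7.91, 7.75 and 8.12 in YSGr, between the 2 other groups and without overlap (YSGr minus YSGnr 0.66, adjusted p = 0.0396). Col4a2 was at 7.35, 7.18 and 7.26 (0.75, adjusted p = 0.0267). Hspg2, at 6.51, 6.26 and 5.54, reached the SG levels in 2 of the 3 YSGr libraries (1.76, adjusted p = 0.0448).

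Granule neuron genes were next: 13 of 24 were higher than in YSGnr and none was lower, beside 5.09% and 0.879% of all tested genes. Cbln3 was at 6.39, 6.68 and 6.33 in YSGr (YSGr minus YSGnr 1.63, adjusted p = 0.0158), Gabra6 at 5.86, 6.23 and 5.36 (1.59, adjusted p = 0.0267) and Gabrd at 5.24, 5.37 and 4.85 (1.13, adjusted p = 0.0423). For all 3 the SG, YSGnr and YSGr libraries lay in that order without overlap. Hes5 (0.78, adjusted p = 0.061), Sox2 (0.50, adjusted p = 0.090), Wwtr1 (0.39, adjusted p = 0.097) and Pdlim3 (−0.08, adjusted p = 0.90) did not pass the test between YSGr and YSGnr. Of 17 endothelial markers 3 were higher in YSGr than in YSGnr and none was lower, beside 5.09% and 0.879% of all tested genes. They were the 3 that fell in YSGnr against SG: Kdr (1.15), Flt1 (0.99) and Cdh5 (0.90), with adjusted p = 0.0272, 0.0398 and 0.0307. The largest difference in the other direction was in Olig3, a transcription factor of the progenitors at the rhombic lip, at 5.46, 5.79 and 5.57 in SG, 4.41, 5.11 and 5.49 in YSGnr and a mean of 1.55 in YSGr (−3.46, adjusted p = 0.0158).

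**Figure D5:**
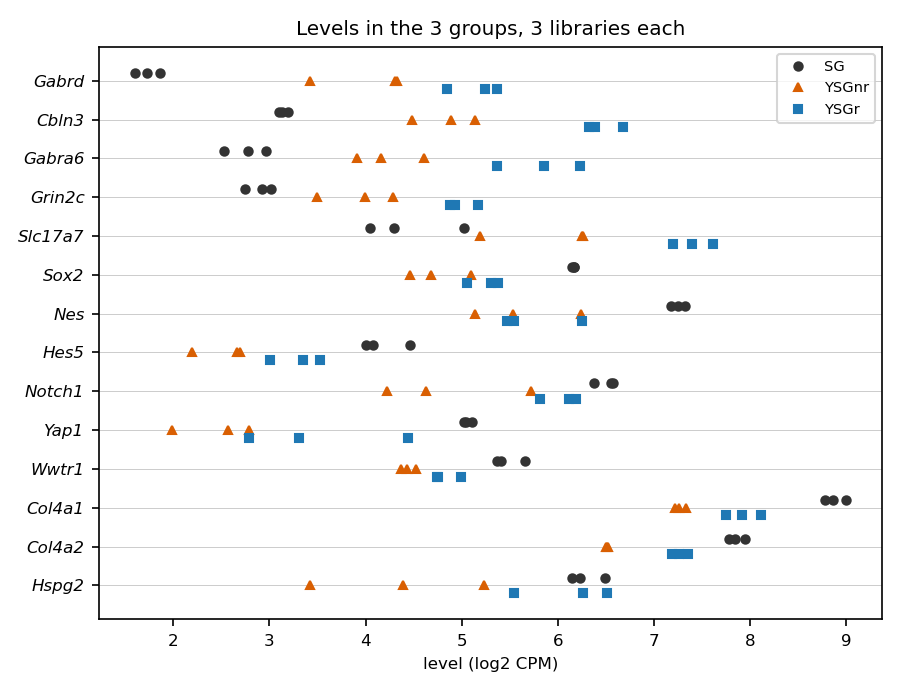
Level (x axis, log2 CPM) of 14 genes in the 3 groups, with 1 point per library. Cbln3, Gabra6 and Gabrd are lowest in SG and highest in YSGr, whereas Sox2 and Wwtr1 are highest in SG and lower in both other groups.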

How the data were processed

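RNA was measured by bulk RNA sequencing of total RNA in 9 libraries, 3 each of SG, YSGnr and YSGr. Per the submitters' processing notes, the authors used Trimmomatic, Bowtie2, RSEM, Picard and edgeR with genome build mm10; their roles, order and versions are not stated there. The deposited file holds log2 CPM for 17482 genes, and its lowest value is the same in all libraries.

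Depth was calculated back from that lowest value. Only 62.5% to 70.4% of values came out as whole reads within 0.02, so no count test was run. Genes above 0 log2 CPM in at least 3 libraries (15251) were fitted with limma 3.58.1 in R 4.3.3, with 1 mean per group, a mean-variance trend and Benjamini-Hochberg adjustment over all of them; the threshold was 0.05. A difference is one of mean log2 CPM, which understates changes of low genes. The script was tested on simulated data. The trend removed was a spline with 5 degrees of freedom in transcript length and in GC content (GENCODE M21). Promoters are from RefSeq.

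Named genes were Yap1 and sex-linked transcripts, the 15 largest changes of each sign among called genes that do not overlap and have a mean of at least 1 log2 CPM in the higher group (leaving out predicted genes), up to 6 called members per list (2 as values only where none was called) and the 5 largest differences of each sign between YSGr and YSGnr. Members, the 50 lists and tests were chosen with earlier results of these data known. The alternatives numbered 20. Replicate numbers were not treated as pairs. Some genes that this rule would name are not reported here.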

Additional observations from a re-analysis of the deposited data

Results flagged for a closer look

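These results differed between the 2 Yap1-floxed groups under the same contrast with SG, by the limma test of YSGr minus YSGnr over all 9 libraries. Values are YSGr minus YSGnr in log2 CPM. Among the granule neuron genes, YSGr was higher for Cbln3 (1.63), Gabra6 (1.59), Slc17a7 (1.5), Gabrd (1.13) and Grin2c (1.07), all of which were also higher in YSGnr than in SG. Among genes of other neurons and of glia, YSGr was higher for Gad1 (1.51), Gdf10 (1.05), Slc1a6 (0.80), Hopx (0.74) and Ttyh1 (0.72).

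Vessel and matrix genes were higher in YSGr for Hspg2 (1.76), Fn1 (1.25), Kdr (1.15), Flt1 (0.99), Cdh5 (0.90), Col4a2 (0.75), Pdgfrb (0.73), Col4a1 (0.66) and Lamc1 (0.46). These were picked because they fell in YSGnr against SG, and both comparisons use the same YSGnr libraries. Of the largest changes between YSGnr and SG, Ccdc3 (2.01) and Fam107a (1.94) were higher in YSGr. The ribosomal gene Rps7 was lower in YSGr (−0.95).

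The largest differences in which YSGr was higher were in Rassf6 (2.92), Slc22a6 (2.80), Nphs1 (2.69), Mrgprf (2.54) and Pgm5 (2.53). The largest in which it was lower were in Olig3 (−3.46), Pgf (−2.17), Cybb (−2.13), Scx (−1.99) and Duxbl3 (−1.82). The call count of this comparison fell from 910 genes to between 1 and 10 when any library other than YSGnr.1 or YSGr.3 was left out. The part of depth, sex and transcript length in these differences was not tested.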

How the results depend on the processing

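Precision was limited by 3 libraries per group and by the depth of YSGnr.1. Over the 9 fits that leave out 1 library, genes called higher ranged from 4 to 1613 and lower from 15 to 1719, and genes called between YSGr and YSGnr from 1 to 6528. Yap1 ranged from −2.78 to −2.38 in these fits. Genes called higher and lower numbered 407 and 783 with the 6 libraries alone, 3655 and 3661 with array weights (whose estimate stopped before it converged), and 1049 and 966 without YSGnr.1 and with the length and GC trend removed. With the trend removed alone, 277 were higher. Genes called between YSGr and YSGnr, alternatives added after seeing the data, numbered 9967 with array weights, 1583 with the trend removed, 316 with median scaling and 3709 without YSGnr.1 and with the trend removed. With the replicate number as a block, 106 genes were higher and 235 lower, and with the block and the trend removed 125 and 211. Deviations from the group means of samples of the same number had correlations of 0.24, 0.11 and 0.05 between SG and YSGnr. Between YSGnr and YSGr they were 0.23, −0.15 and 0.21, and between SG and YSGr −0.03, −0.11 and −0.23. SG.2 correlated best with YSGnr.3 (0.119, against 0.106 with YSGnr.2). These values do not settle whether the numbers mark pairs. The cause of the shifts in the number of calls was not tested. Of 91 named genes called, 7 were called in every alternative run: Plac9b, Gabrd, Cbln3, Ccl21a, Cybrd1, Col4a1 and Col4a2. Of these, Ccl21a was above 0 log2 CPM only in the SG libraries, through which it passed the filter. No named gene that was called changed sign in any alternative run.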

Other observations

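Predicted genes and pseudogenes, left out of the largest changes in the report and named after their values were seen, took many of the steepest decreases. Of the 331 genes that fell, 35 had symbols of predicted genes, clones or pseudogenes, with a median difference of −2.99, and 9 of the 10 largest decreases were among them. Of the 181 that rose, 11 had such symbols, with a median of 1.02. They were 11.9% of the genes tested, and 2.54% of them were called, beside 3.36% of all tested genes. Gm26825 (a lincRNA, chr5:5781530-5783636, GRCm38) was at 8.62, 8.69 and 8.67 log2 CPM in SG, −3.52, 0.34 and −3.52 in YSGnr and 0.29, −0.77 and −3.52 in YSGr. Gm6166 (a processed pseudogene, chr9:57483963-57484371) was at 5.28, 5.43 and 5.43 in SG, and each YSGnr library was at −3.52, the lowest value there is. In 31 of the 35, all 3 YSGr libraries also lay below all 3 SG libraries. Both comparisons share the SG libraries, and this count was not set against that over all genes that fell. Gm26821 (chr7:18962415-18965173) was an exception, at 1.40, 1.37 and 0.91 in SG, −3.52, −3.52 and −2.88 in YSGnr and 2.00, 1.87 and 2.47 in YSGr.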
